A study of Homo sapiens with 4 samples.

Results

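The genes CASP6, CASP8, CASP9, CASP10, CFLAR, BIRC2, BIRC3 and XIAP encode caspases, a regulator that resembles them and inhibitors of apoptosis. They are 8 of the 16422 genes that could be named on the array, and they are read by 12 of its 41000 probes. A probe was assigned to a member when its RefSeq accession belonged to that gene. CASP10 had 3 probes, CASP8 and CASP9 had 2 each, and the other 5 genes had 1 each. All 12 probes reached a signal of 100 on at least 1 array, as did 25927 of the 41000 probes.

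RNA was measured once in each of 4 cultures, with no replicates. SkBr3 (SkBr-3 in the labels) and BT474 are breast cancer lines with high HER2, and their parental cultures are labelled Vehicle. From each line 1 resistant clone was grown with rising doses of lapatinib, which inhibits EGFR and HER2, up to 1 μM. The clones are called SkBr3/Lap and BT474/Lap, because the labels give number 3 to the SkBr3 clone and 6 to the BT474 clone while the study's text numbers them the other way round. The comparison of a clone with its own parental cells asks which transcripts differ in resistant cells, and with 1 clone per line a property of resistance and a property of that clone cannot be told apart. For protein blots the study kept such clones in 1 μM lapatinib. Its text does not state whether the drug was present when RNA for the arrays was taken. An effect of the drug itself therefore cannot be told apart from these either.

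Caspases are cysteine proteases that are made as inactive precursors and that execute apoptosis once they are cut or brought together. CASP8 and CASP10 are started at death receptors and CASP9 in the mitochondrial pathway, and CASP6 is cut downstream of the initiators. CFLAR, which encodes c-FLIP, occupies the place of CASP8 at the receptor, XIAP binds and blocks caspases directly, and BIRC2 and BIRC3 encode cIAP1 and cIAP2, ubiquitin ligases of the TNF receptor complex. BIRC3 and CFLAR are known target genes of NF-κB, the transcription factor that the study followed in lapatinib-resistant cells.

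The signal is the fluorescence of a spot after the scanner software subtracted the background, and the level used below is its log2 minus the log2 of the 75th percentile of the same array. Levels and signals of a pair are given with the parental cells first, and changes, always clone minus parental cells, with the SkBr3 clone first. The 75th percentile was 1115 and 2074 in the SkBr3 pair and 1158 and 1681 in the BT474 pair, so a raw signal that was higher in a clone is not by itself a higher level. The software marked 66.6% to 74.0% of the probes of an array as well above background. The array of SkBr3/Lap sat alone on its slide, so that slide and resistance cannot be told apart in the SkBr3 pair, while both BT474 arrays shared a slide. Of the 7 luminal epithelial markers, 6 were well above background on both SkBr3 arrays, where CDH1 was not, and 7 on both BT474 arrays. The sum of their signals over the 75th percentile was 818 and 488 in the SkBr3 pair and 763 and 512 in the BT474 pair. The 8 lymphoid and myeloid markers summed to between 0.190 and 0.830 on the 4 arrays, and PTPRC and MS4A1 were not well above background on any of them. The 4 measured fibroblast markers went from 0.0172 to 0.204 in the SkBr3 pair and from 0.0153 to 0.00999 in the BT474 pair, and the 4 endothelial markers from 0.173 to 0.675 and from 0.785 to 0.395. The cultures are cell lines and clones grown from them, so these sums describe transcripts and give no share of cell types. The part of these transcripts in the results was not tested.

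BIRC3 and CASP10 were the members at least 2-fold higher in both resistant clones, and CASP6 was at least 2-fold lower in SkBr3/Lap. Each member was taken at its brightest probe. In SkBr3/Lap 2 of the 8 were past 2-fold on the higher side and 1 on the lower side. Among the 12159 named genes with a kept probe the shares were 14.2% and 14.5%. In BT474/Lap 2 members were higher by this limit and 0 were lower, against 9.27% and 5.4% of the named genes. In both clones 2 members were higher and 0 lower, against 3.09% and 1.46%. BIRC3 and CASP10 passed the minimum signal of 100 only through the clones, where they were high, so their count is a description and not an excess over these shares. The median log2 change of the 8 members was 0.19 for SkBr3/Lap and 0.02 for BT474/Lap, and that of all named genes was −0.06 and −0.09. The other 5 members, CASP8, CASP9, CFLAR, BIRC2 and XIAP, stayed within 2-fold in both clones at their brightest probe.

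A single test across the cell lines could be made, with limma on the 4 arrays, resistance as the effect and the cell line as a term, which leaves 1 residual degree of freedom. It called 0 of the 25927 kept probes at a Benjamini-Hochberg adjusted p under 0.05 (0%), and 0 of the 12 member probes. At an unadjusted p under 0.05 limma gave 900 of the kept probes, or 3.47%, and 1 of the 12 member probes, that of BIRC3. The BIRC3 probe was kept only through its clone signals, so this count is a description and not support. The fold changes below are therefore differences between single arrays. Each is given with the error that the scanner software estimates for the signals, which covers the array and not the spread between cultures.

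**Figure D1:**
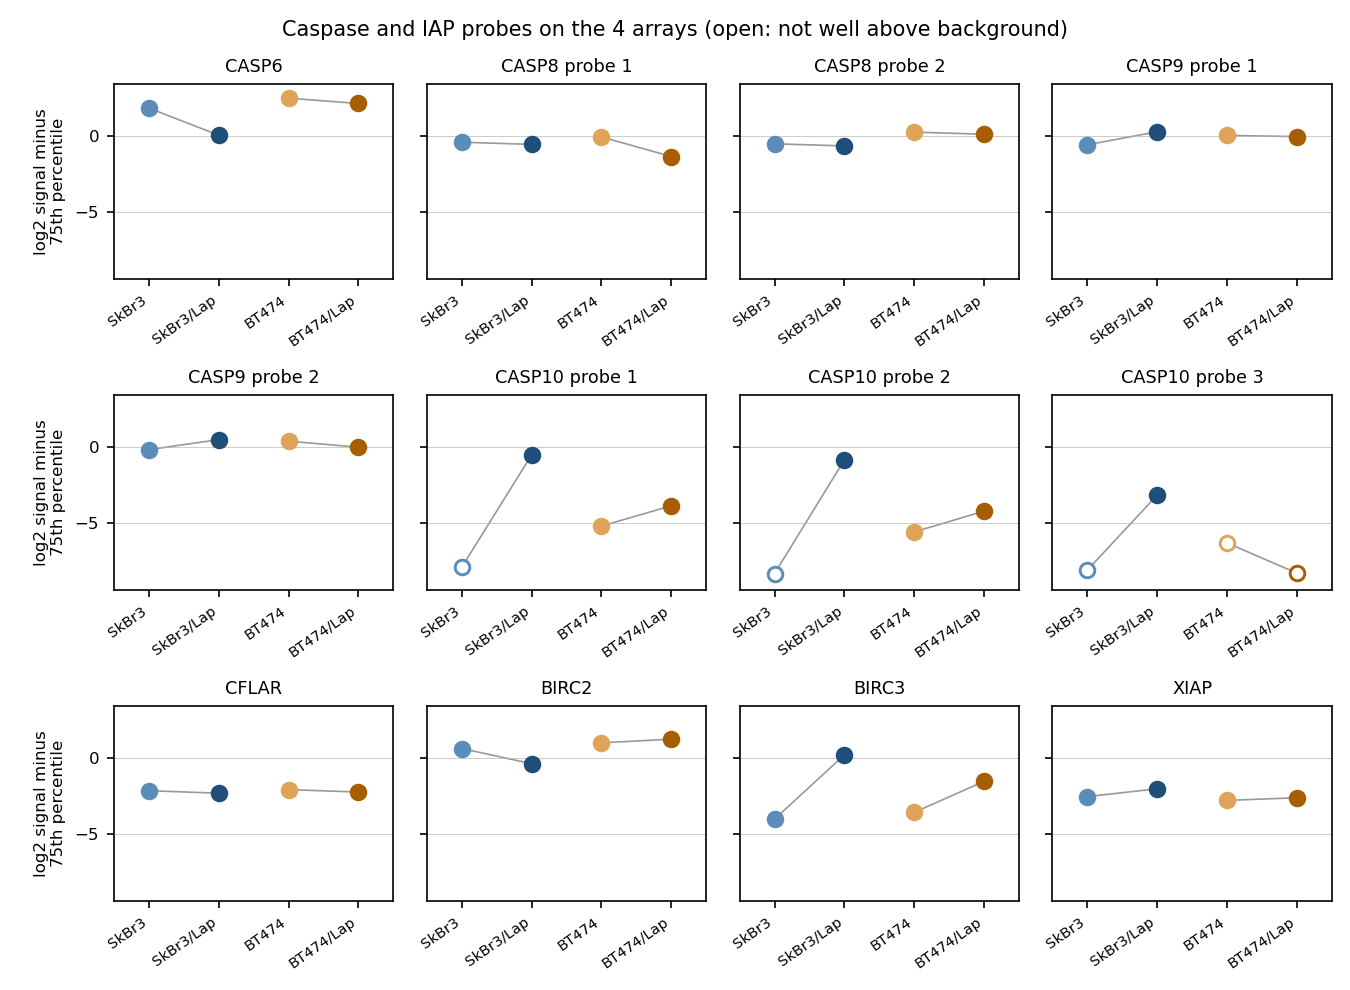
Level of each member probe on each of the 4 arrays, as log2 signal minus the 75th percentile of the array, with 1 panel per probe and a line joining each parental culture to its clone. BIRC3 and the first 2 CASP10 probes lie lower in both parental cultures than in the clones, and the open points of the CASP10 probes are signals not well above background.

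Among the inhibitors of apoptosis, BIRC3 had a signal of 68.5 in parental SkBr3 and 2396 in its clone, and of 97.0 in parental BT474 and 580.0 in its clone. Both parental signals were low but well above background, and both clone signals were higher. The scaled level was −4.03 and 0.21 in the SkBr3 pair and −3.58 and −1.54 in the BT474 pair. BIRC3 was thus 18.8-fold higher in the SkBr3 clone, a log2 change of 4.23 with a software error of 0.22. It was 4.12-fold higher in the BT474 clone, a log2 change of 2.04 with an error of 0.21. The parental cultures differed by less than the clones did. In the ranking of the 12159 named genes, 276 genes had a higher change than BIRC3 in SkBr3/Lap and 435 in BT474/Lap. The mean log2 change over both lines was 3.14 in limma. The BIRC3 probe was kept only through its clone signals, where it is high, so its p-value is not used.

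The stretch just before the BIRC3 start is shown because BIRC3 is a known NF-κB target and was higher in both clones. It is 250 bases long, from RefSeq on GRCh38.p14, at chr11:102317234-102317483 on the plus strand. Capitals mark the matches to the κB consensus, which was searched on both strands.
BIRC3 before start: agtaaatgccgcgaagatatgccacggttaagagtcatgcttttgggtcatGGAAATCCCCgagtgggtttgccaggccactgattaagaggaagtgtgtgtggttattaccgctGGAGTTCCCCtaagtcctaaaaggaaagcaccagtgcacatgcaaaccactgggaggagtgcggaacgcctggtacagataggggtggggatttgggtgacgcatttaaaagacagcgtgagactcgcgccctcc

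The 2 matches read on the minus strand and begin 199 and 135 bases before the start. Of the 35116 windows of 250 bases before annotated starts in the table used, 5.21% held at least 1 match and 0.635% held at least 2. Of the members, 7 had such windows, 16 in all, and CASP10 had no entry. Besides BIRC3 only CFLAR had a match, in 1 of its 4 windows, 97 bases before a start, at chr2:201118609-201118638 on the plus strand of the same build.
CFLAR around match: cgcggggggcGGGGAATTCCgcagacagga

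These letters describe the windows and not binding. No match was found in the windows searched for BIRC2, XIAP, CASP6, CASP8 and CASP9, which says only that the consensus letters are absent there. BIRC3, with 2 matches, and CFLAR, with 1, had unlike values on the arrays, as given below.

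BIRC2 neighbours BIRC3 on chromosome 11 and encodes the related ligase cIAP1. Its signals were 1726 and 1606 in the SkBr3 pair and 2325 and 3982 in the BT474 pair. The scaled level was 0.63 and −0.37 in the SkBr3 pair and 1.00 and 1.24 in the BT474 pair, so that the clone was lower in the first pair and higher in the second. The log2 change of −0.999 in SkBr3/Lap, with a software error of 0.20, lay just inside the 2-fold limit. The 75th percentile taken over probes well above background, or normexp correction with quantile normalization, put it past that limit. In BT474/Lap the log2 change was 0.24.

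XIAP, the direct caspase inhibitor, gave signals of 192 and 509 in the SkBr3 pair and 167 and 274 in the BT474 pair. Its log2 changes of 0.51 and 0.17, with an error of 0.21 each, were under 2-fold in both lines. The change in BT474/Lap was −0.03 when arrays were scaled on the median or by quantiles.

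The genes on either side of BIRC3 and BIRC2 did not share the BIRC3 values. YAP1, next to BIRC3, had log2 changes of 0.29 and −0.16 in the SkBr3 and BT474 clones, and TMEM123, next to BIRC2, had −1.77 and −0.44. CFAP300 and MMP7 had no probe above the signal minimum.

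CASP10, an initiator caspase of the death receptor pathway, was near or at background in both parental cultures. Its brightest probe gave 4.54 in SkBr3, where it was not well above background, and 1438 in its clone, and 31.3 in BT474 and 114.7 in its clone. Both clone signals were higher than the parental ones, and SkBr3/Lap stood far above the other 3 arrays. Since the SkBr3 signal was not well above background, the change is a lower limit, taken against the lowest signal so marked on that array, 16.01. CASP10 was at least 48.3-fold higher in the SkBr3 clone. In the BT474 clone it was 2.53-fold higher, a log2 change of 1.34 with an error of 0.30. In the same ranking 800 genes had a higher change than CASP10 in BT474/Lap.

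The other two CASP10 probes were read separately. The second, designed to the same transcript accession, gave 3.43, 1153, 23.9 and 90.1 in the same order. It was at least 38.7-fold higher in the SkBr3 clone and 2.59-fold in the BT474 clone, close to the first. The third, designed to another transcript of the gene, gave 4.04, 231, 14.4 and 5.26, and was well above background in SkBr3/Lap and on no other array. It was at least 7.77-fold higher in SkBr3/Lap, and no fold is given in BT474/Lap because neither signal was above background. The higher level in SkBr3/Lap was thus seen with 3 of the 3 probes, and that in BT474/Lap with 2.

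No mean change over both lines is given for CASP10, because its signal in parental SkBr3 was not measured above background. In BT474/Lap the change of CASP10 was under 2-fold when 16 was added to the signals (0.94), with normexp correction and quantile normalization (0.51) and as the mean over its probes (0.24), all on the log2 scale.

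CASP8, the main initiator at death receptors, lies next to CASP10 on chromosome 2, and its 2 probes gave different answers in BT474/Lap. The brightest probe, with 1 spot, gave 783 and 1321 in the SkBr3 pair and 1387 and 1824 in the BT474 pair. Its log2 changes were −0.14 in both lines with an error of 0.20. The other probe, with 10 spots, gave 841, 1416, 1112 and 660 in the same order, and its log2 changes were −0.14 and −1.29. The raw signals of its spots ran from 888 to 1359 in BT474 and from 430 to 850 in BT474/Lap. Their SD was 0.21 and 0.26 on the log2 scale, where the median over probes with 10 spots was 0.081 and 0.076. These spots are repeats on 1 array each and not replicate cultures. The probes were 0.00 apart in SkBr3/Lap and 1.15 apart in BT474/Lap. Of the 2970 genes with 2 probes compared in the BT474 pair, 5.12% had a gap of at least 1, and the median gap was 0.24. A lower CASP8 level in BT474/Lap thus rests on 1 of 2 probes, and which transcripts each probe reads was not tested.

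CFLAR, on the other side of CASP10, gave signals of 251 and 416 in the SkBr3 pair and 274 and 355 in the BT474 pair. The scaled levels lay between −2.32 and −2.08 on all 4 arrays. The log2 changes of −0.17 and −0.16, with an error of 0.21, were smaller than that error in both lines. With 1 probe the long and short forms of c-FLIP cannot be told apart.

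Around these 3 genes on chromosome 2, the values of CASP10 were not shared by either neighbour. In genome order the log2 changes in SkBr3/Lap and in BT474/Lap were −0.58 and −0.04 for HYCC2, −0.32 and 0.23 for NDUFB3, and −0.51 and 0.71 for TRAK2. FLACC1, between CASP8 and TRAK2, had no probe above the signal minimum. The order of genes is that of GRCh38.p14, whereas the array was designed on an older build.

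**Figure D2:**
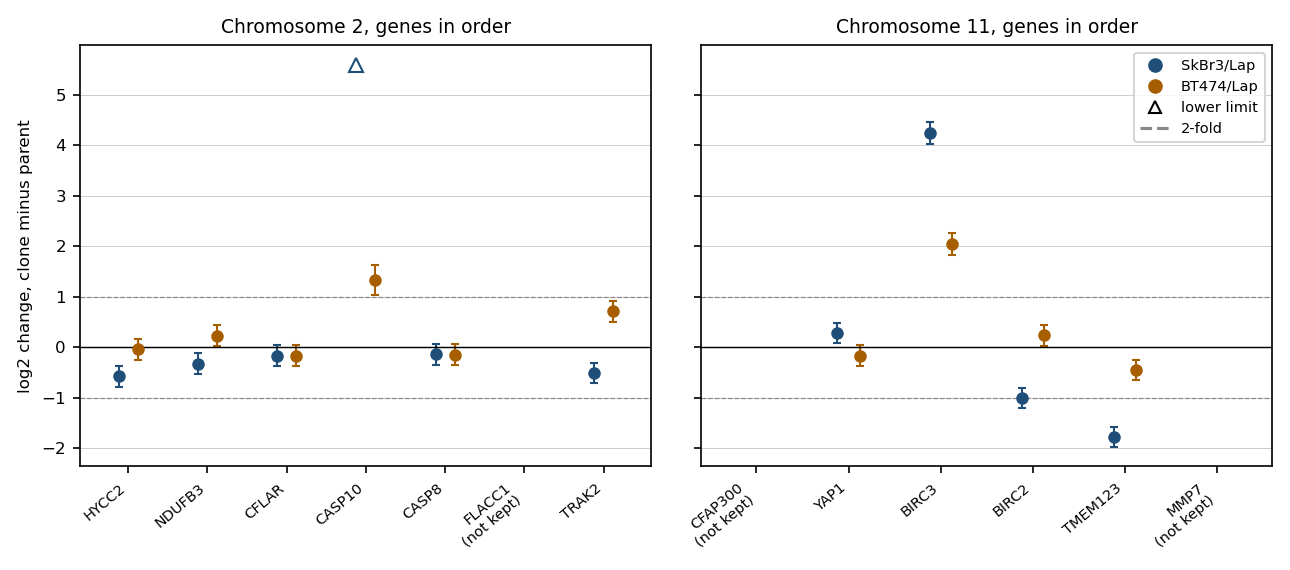
Log2 change, clone minus parental cells, of the genes in genome order around CFLAR, CASP10 and CASP8 (left) and around BIRC3 and BIRC2 (right). CASP10 in SkBr3/Lap is drawn at its lower limit of 5.59, bars are the software error, and of the other genes drawn only BIRC3 in both clones, CASP10 in BT474/Lap and TMEM123 in SkBr3/Lap lie past 2-fold.

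CASP9, the initiator that the apoptosome activates, gave signals of 991 and 2907 in the SkBr3 pair and 1515 and 1671 in the BT474 pair with its brightest probe. The log2 change was 0.66 in the first pair and −0.40 in the second, with an error of 0.20 each. The other probe gave 749.0, 2526, 1195 and 1640 and log2 changes of 0.86 and −0.08. The probes shared the sign of each change, and all 4 values were under 2-fold.

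CASP6, a caspase cut downstream of the initiators, had a signal of 4018 in parental SkBr3 and 2161 in its clone, and of 6562 in parental BT474 and 7445 in its clone. The scaled level was 1.85 and 0.06 in the SkBr3 pair and 2.50 and 2.15 in the BT474 pair, so SkBr3/Lap was the lowest array. CASP6 was 3.46-fold lower in SkBr3/Lap, a log2 change of −1.79 with an error of 0.20, and 720 of the 12159 named genes had a lower change. In BT474/Lap its log2 change was −0.35. The limma unadjusted p was 0.141 for a mean log2 change of −1.07, with an adjusted p of 1.

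**Figure D3:**
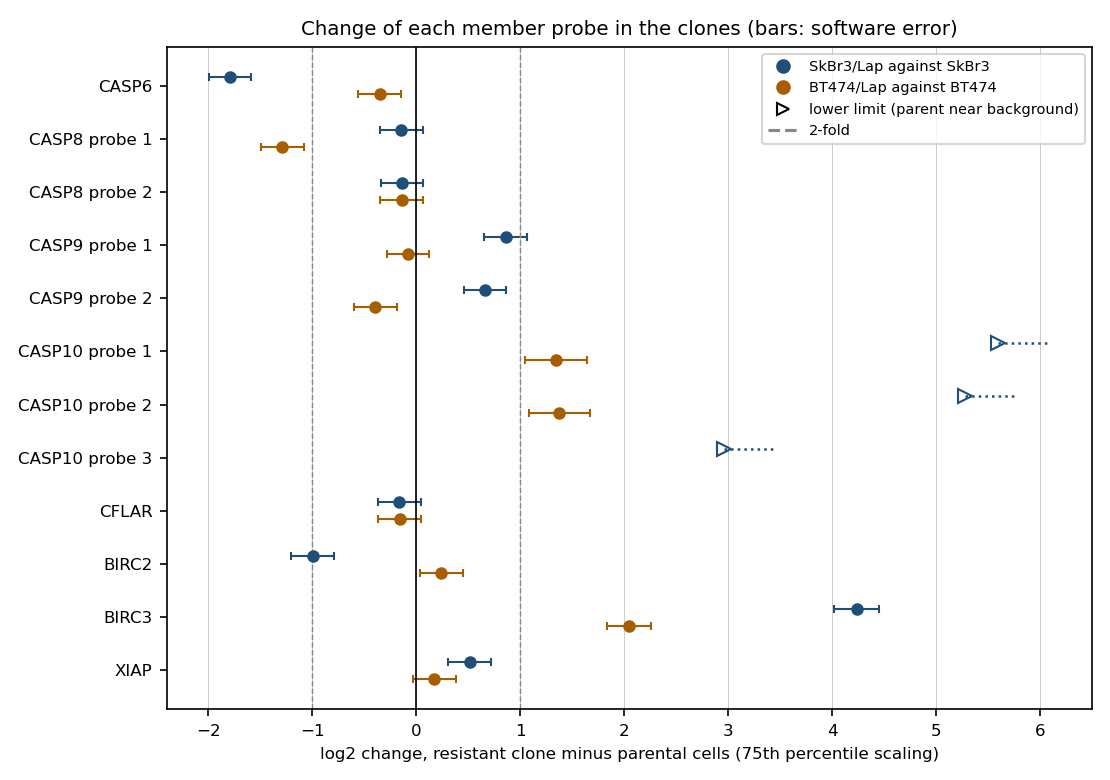
Log2 change of each of the 12 member probes, clone minus parental cells, in SkBr3/Lap and BT474/Lap, with bars for the software error and dashed lines at 2-fold. Triangles are lower limits, set where the parental cells lacked a signal well above background, and the third CASP10 probe has no BT474/Lap value. The brightest probe is probe 2 of CASP8, whose probe 1 has 10 spots, probe 2 of CASP9 and probe 1 of CASP10. BIRC3 and the first 2 CASP10 probes lie past 2-fold on the higher side in both clones, and CASP6 lies at −1.79 in SkBr3/Lap.

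The clones differed most in CASP10 and BIRC3. The change in SkBr3/Lap minus that in BT474/Lap was 2.19 for BIRC3, −1.44 for CASP6, −1.24 for BIRC2, 1.05 for CASP9 and 0.34 for XIAP on the log2 scale. With 1 array per culture none of these differences could be tested. Of the 8 members, 6 had the same sign in both clones, and CASP9 and BIRC2 had opposite signs.

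Of 40 further genes of the pathway, listed by role, 33 had a kept probe, 5 had probes under the signal minimum and 2 had no matched probe. In SkBr3/Lap 4 of the 33 were past 2-fold on the higher side and 4 on the lower side, beside 14.2% and 14.5% of the named genes, with a median log2 change of −0.05. In BT474/Lap 1 was higher and 2 were lower, beside 9.27% and 5.4%, with a median of −0.03. Under 2-fold in both clones were 23. Among the other caspases, 3 of the 6 with a kept probe were at least 2-fold higher in SkBr3/Lap and 0 in BT474/Lap. Of the named genes, 14.2% and 9.27% were. CASP1, 1 of the 3, was kept only through SkBr3/Lap, where it is high, so the count is a description and not an excess. The medians were 1.04 and 0.23, and the second includes CASP1, which was not above background in either BT474 culture.

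The 3 that were higher in SkBr3/Lap are the inflammatory caspases, which mature cytokines or sense bacterial products rather than execute apoptosis. CASP4 gave 6911 and 52991 in the SkBr3 pair and 7294 and 12050 in the BT474 pair, 4.12-fold higher in the first pair and 1.14-fold in the second. CASP5 gave 1753, 16167, 1735 and 2962, 4.96-fold and 1.18-fold higher. CASP4 and CASP5 are closely related in sequence and the probe sequences were not used here, so their values may not be independent. CASP1, named after its values were seen, went from 7.78, not well above background, to 115.6, at least 3.88-fold higher in SkBr3/Lap, and was not above background in either BT474 culture. CASP2 had log2 changes of −0.03 and 0.41.

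Of the other inhibitors of apoptosis, NAIP, which also senses bacterial proteins, gave 105 and 16.4 in the SkBr3 pair and 468 and 727 in the BT474 pair. It was 11.9-fold lower in the SkBr3 clone and 1.07-fold higher in the BT474 clone. The signal of 16.4 was close to 13.3, the lowest marked well above background on that array, so the size of the fold is uncertain. The lower level rests on its brightest probe, as its other 2 lay near background in the SkBr3 pair. BIRC5, known as survivin, had log2 changes of 0.19 and −0.54, and BIRC6 of −0.87 and −0.03. The antagonists DIABLO and HTRA2, which displace caspases from the inhibitors, had 0.62 and 0.48 in SkBr3/Lap and −0.27 and −0.42 in BT474/Lap.

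At the receptor, TNFSF10, which encodes the death ligand TRAIL, gave 44.8 and 23.4 in the SkBr3 pair and 289 and 4791 in the BT474 pair. It was 3.55-fold lower in the SkBr3 clone, where both signals of the pair were near background, and 11.4-fold higher in the BT474 clone. APAF1, the scaffold on which CASP9 is activated, had log2 changes of −1.97 and 0.46, with low signals of 118 and 55.8 in the SkBr3 pair. TRAF1, which binds the cIAPs, had 1.07 and 0.04 at the brightest of its 2 probes, with low signals of 68.1 and 266 in the SkBr3 pair. CARD8 had −1.86 and 0.24, with low signals of 52.2 and 26.7 in the SkBr3 pair. TNFRSF10B, a receptor of TRAIL, had 0.96 and −1.93. PYCARD, an adaptor of inflammatory caspases, had −1.82 in BT474/Lap and was not above background in the SkBr3 pair.

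**Figure D4:**
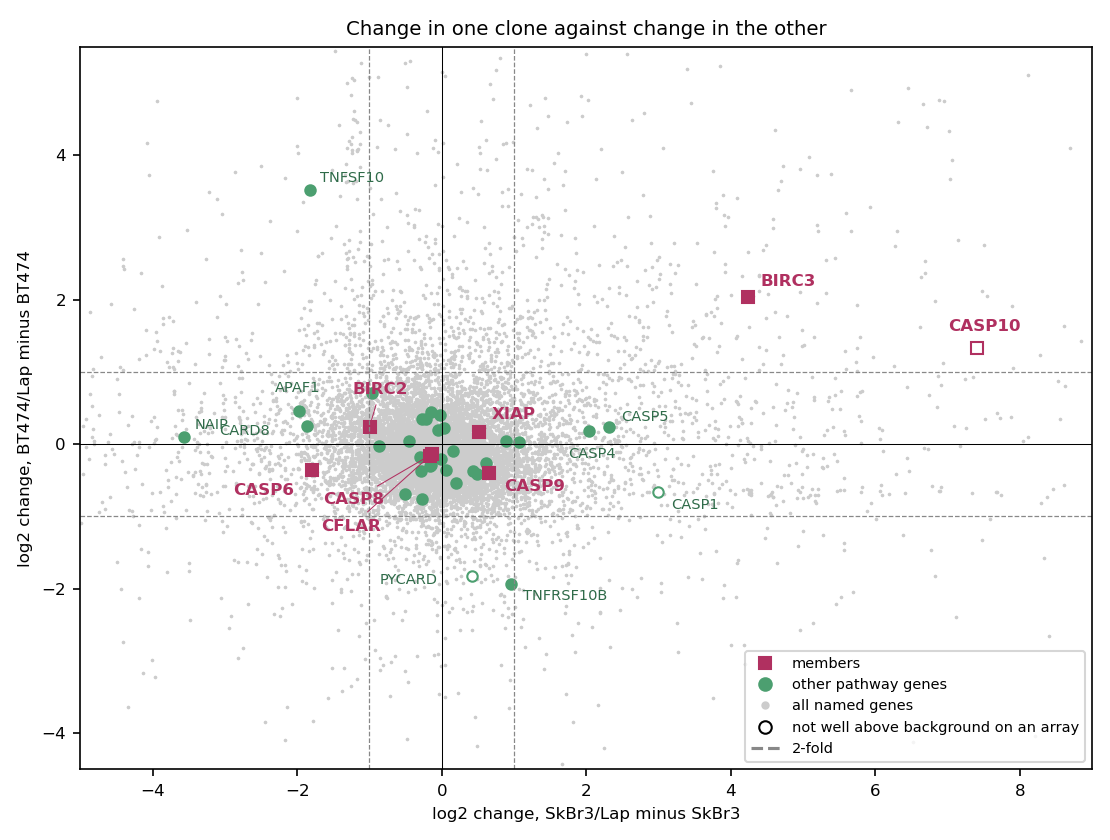
Log2 change in BT474/Lap against that in SkBr3/Lap, with members as squares, the other pathway genes as circles and named genes in grey, dashed lines at 2-fold and open symbols where a signal was not well above background, drawn at the measured value. BIRC3 and CASP10 are the squares past 2-fold on the higher side in both clones, and 186 named genes lie outside the axes.

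Candidates for a like pattern were the 11435 named genes whose brightest kept probe was well above background on both clone arrays. The genes among them whose 4 levels, centred on their mean, were nearest to those of BIRC3 were RASSF8, CLEC7A and ENTPD1, at Euclidean distances of 0.29, 0.37 and 0.39 on the log2 scale. Those nearest to CASP10 were CYP26A1, KCND2 and LMO2, at 0.67, 0.83 and 1.16. The 3 genes near BIRC3 were not well above background in either parental culture, nor were CASP10, CYP26A1 and KCND2 in SkBr3. With 4 arrays such likeness describes these cultures only.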

How the data were processed

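Total RNA of 4 cultures was hybridised to 1-colour Agilent 4 × 44K arrays, 1 array per culture. The authors deposited scanner files with a processed intensity per spot, already corrected for background by Feature Extraction 10.1.1.1, and other flags such as well above background, per the file headers. The methods name another version, Cy3 or Cy5 and LOWESS, which the headers do not show. The authors also deposited log2 values per probe, with column medians of 0.13, −0.20, 0.11 and −0.05 (SkBr3, SkBr3/Lap, BT474, BT474/Lap). Their differences between a clone and its parental cells deviated from those used here by at most 0.01 for member probes, so the direction is known, while the constant removed from each probe is not.

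Repeat spots were averaged on the log2 scale, and values were set against the 75th percentile of their array. Probes were kept at a signal of at least 100 on 1 or more arrays, and were well above background where 50% or more of the spots were marked so. The kept probe with the highest mean signal stood for a gene. Where 1 array of a pair lacked this mark, the fold is a limit against the lowest signal so marked on that array or the dim signal itself, whichever was higher. RefSeq accessions named 23680 of the 41000 probes through the GRCh38.p14 annotation. Groups followed the sample labels. The 4 arrays limit the precision, and p-values from limma 3.58.1 (R 4.3.3) treat the cell lines as replicates. Scripts used Python 3.11.15, numpy 2.4.6 and pandas 2.3.3, and were tested on simulated data.

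The members, the gene lists and the alternatives were chosen with earlier results of these data known. Named in the text were all members with every probe, pathway genes at least 4-fold different in either clone and well above background on at least 1 array of that pair, the 2 genes on either side of each neighbourhood, and the 3 genes nearest in pattern to BIRC3 and CASP10. The other pathway genes with values were named after these were seen. Some items of the pathway list are not reported here. Alternatives were other percentiles and scalings, quantile normalization, normexp correction, the deposited log2 table, an added 16, other filters, outlier spots left out, the mean over probes, a 3-fold limit and other limma terms.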

Additional observations from a re-analysis of the deposited data

Results flagged for a closer look

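CASP9 and BIRC2 differed in direction between the clones. CASP9, the initiator caspase of the mitochondrial pathway, had a log2 change of 0.66 in the SkBr3 clone and −0.40 in the BT474 clone. BIRC2, which encodes cIAP1, had a log2 change of −0.999 in the SkBr3 clone and 0.24 in the BT474 clone. The second CASP9 probe gave −0.08 in the BT474 clone, with a software error of 0.20, and BIRC2 gave 0.03 there when arrays were scaled on the median. Each value is the difference between 1 pair of arrays, so the difference between the clones was not tested.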

How the results depend on the processing

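Over the alternatives, 134 of 158 values of single members moved by less than the median SD between probes of a gene (0.17 on the log2 scale in either pair), 24 moved by more, and 0 past the 2-fold limit changed sign. Part of the 134 could not move. The other signal filters kept the same probe and scaling, and the mean over probes changes nothing for the 5 members with 1 probe. The deposited values and leaving out outlier spots hardly differ from the main setting, so the 134 is no measure of stability. The log2 change of BIRC3 ran from 3.51 to 4.39 in the SkBr3 clone and from 1.44 to 2.15 in the BT474 clone, and that of CASP6 in SkBr3/Lap from −1.86 to −1.63. The log2 change of CASP10 in the BT474 clone ran from 0.24 to 1.45. The number of members at least 2-fold higher in BT474/Lap was 1, BIRC3, with normexp correction and quantile normalization, with 16 added, over probes well above background on all 4 arrays, as the mean over probes and at 3-fold. In SkBr3/Lap it was 1 over probes well above background on all 4 arrays, a filter that leaves CASP10 out by construction. The number at least 2-fold lower in SkBr3/Lap was 2, CASP6 and BIRC2, with the percentile over probes well above background and with normexp correction and quantile normalization. Scaling on the median moved the median of all named genes from −0.06 to 0.10 in the SkBr3 pair and from −0.09 to −0.29 in the BT474 pair, where 7.50% were then higher and 8.54% lower. The 3 values that turned sign, all under 2-fold, were CASP8 in SkBr3/Lap, 0.02 with the median, and XIAP in BT474/Lap, −0.03 with the median and with quantiles. limma called 0 member probes under its 5 alternatives and gave 1 at an unadjusted p under 0.05, and 3 with no signal filter. The cause of these shifts was not tested. Each clone was paired with its own parental cells, in the changes and through the cell line term of limma. With 1 array per culture no test within a cell line was possible. Signal over background limits CASP10, which was not well above background in parental SkBr3, so its fold there is a lower limit.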
